A study of Homo sapiens with 26 samples.

Results

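EDA2R, FAS, TNFRSF10B, BBC3, TP53I3, CDKN1A, MDM2, GDF15, SESN1 and FDXR, genes that the transcription factor p53 is known to switch on, were followed through a study of ZBTB24 and DNMT3B in human HCT116 cells. They were chosen by name, with earlier results of these data known, as 10 of the 26313 gene names in the authors' assembled annotation. All 10 were found there. Shares of members set beside all gene names below are therefore descriptions and no test of the set. The gene names were not limited to genes expressed in these cells. HCT116 is an epithelial line from a colorectal cancer. ZBTB24 is a zinc finger protein and DNMT3B a de novo DNA methyltransferase, and inherited mutations in either gene cause the same immunodeficiency syndrome, ICF.

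The study held 26 libraries, of which 12 were RNA-seq, 7 ChIP-seq and 7 matched input. For RNA, 3 libraries carried a lentiviral hairpin against ZBTB24 (shZBTB24) and 3 a hairpin with no target (shNT). Another 2 came from clones with stably added FLAG-ZBTB24, set against 2 from clones with the tag alone (FLAG-only), and 1 DNMT3B knockout library was set against 1 wild-type library with neither tag nor hairpin. The ChIP libraries came from 3 lines with FLAG-ZBTB24, 2 with FLAG-DNMT3B and 2 with the tag alone. Hairpin and FLAG lines were selected with puromycin, and each FLAG line was grown from a single cell, so the added protein and traits of a clone cannot be told apart. The sources used here do not name the promoter that drives the tagged proteins. The tagged proteins were made from added DNA, so the peaks are those of added and not of native protein.

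p53 is a transcription factor that is held low by the ubiquitin ligase MDM2 and accumulates after DNA damage and other stress. It then binds paired 10-base half-sites in DNA and switches on genes for cell cycle arrest, cell death, repair and metabolism, among them MDM2 itself, which closes a feedback loop.

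The p53 sites near the members' start sites show how closely the letters there match the sequence that p53 is known to bind. RefSeq promoter windows of 300 bases (250 before a start and 50 after it, build GRCh38.p14) matched 9 of the 10 members, with 18 windows in all. TNFRSF10B was the member without a window. Each window was searched for the p53 consensus site, made of 2 adjacent half-sites of 10 bases with no spacer. This site is its own reverse complement, so that one search covers both strands. The best 20-base matches of 5 members are shown 5′ to 3′ on the strand of the gene, with the letters that match the consensus in capitals.
FAS (chr10:88991309-88991328, + strand): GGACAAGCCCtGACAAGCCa
MDM2 (chr12:68808923-68808942, + strand): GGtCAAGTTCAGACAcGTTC
SESN1 (chr6:109009018-109009037, - strand): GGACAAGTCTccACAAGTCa
GDF15 (chr19:18386186-18386205, + strand): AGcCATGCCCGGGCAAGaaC
FDXR (chr17:74872996-74873015, - strand): GGGCAgGagCGGGCTTGCCC

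The FAS and MDM2 sites matched 18 of 20 letters, a number reached by the best site of 0.649% of the 35114 RefSeq windows. The SESN1, GDF15 and FDXR sites matched 17 letters, which 5.2% of windows reached. The best site of EDA2R matched 16 letters, reached by 26.0% of windows. The best sites of BBC3, TP53I3 and CDKN1A within these windows matched 15 letters, which 70.5% of windows reached or passed. An exact half-site stood in 3 of the 18 member windows, 1 each of FAS, SESN1 and FDXR, and 6.63% of all windows hold one. All these shares are per window, whereas a member with several windows is given by its best one. The motif CAGGACCT, searched for on both strands as a ZBTB24 motif, was in none of the members' windows and in 1.55% of all windows. At so low a share its absence from 18 windows says little. The windows were placed on gene starts and not on ZBTB24 peaks, so the sequence under the peaks was not searched. These matches describe letters only, and no p53 binding was measured in the study.

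**Figure D1:**
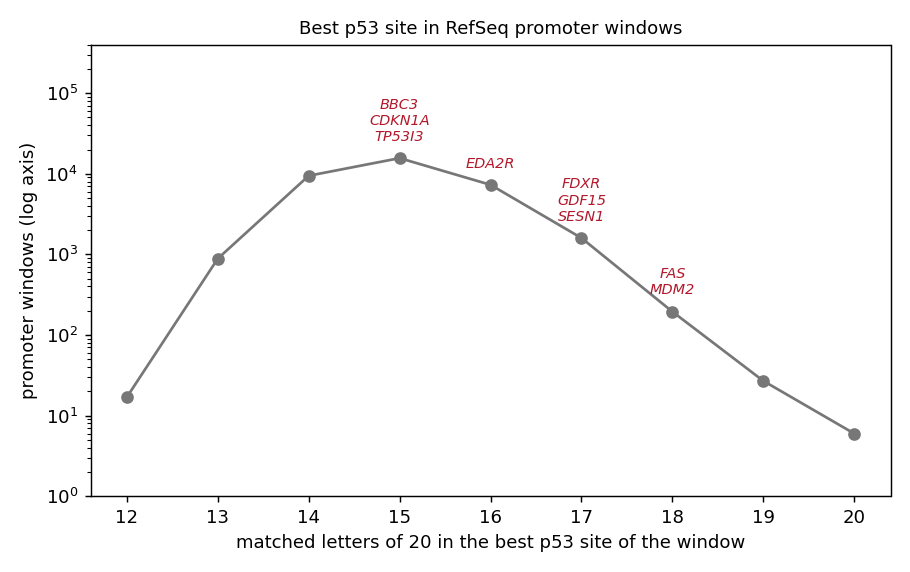
Number of RefSeq promoter windows (y, log axis) by the letters of the p53 consensus matched in the window's best 20-base site (x). Grey points stand for the 35114 windows, and 9 p53 target genes are named above the point of their best window. FAS and MDM2 stand at 18 letters, above most windows.

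The best matches of FAS, MDM2 and SESN1 lay at a downstream start and not at the outermost one, where each of these genes matched 15 letters. For FAS and SESN1, which also had ZBTB24 peaks upstream of a start, the inner windows are shown with the p53 site in capitals. The FAS window began 633 bp downstream of the outermost FAS window. The SESN1 window began 85858 bp downstream of the outermost SESN1 window, and the first MDM2 window with its site 845 bp downstream of the outermost MDM2 window.
FAS inner window (chr10:88991181-88991480, + strand): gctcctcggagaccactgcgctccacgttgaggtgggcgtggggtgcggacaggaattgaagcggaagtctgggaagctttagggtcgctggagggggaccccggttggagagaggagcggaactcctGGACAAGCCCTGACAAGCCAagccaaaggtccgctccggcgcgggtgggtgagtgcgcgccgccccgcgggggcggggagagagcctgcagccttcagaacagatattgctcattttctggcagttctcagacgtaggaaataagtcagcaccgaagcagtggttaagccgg
SESN1 inner window (chr6:109008939-109009238, - strand): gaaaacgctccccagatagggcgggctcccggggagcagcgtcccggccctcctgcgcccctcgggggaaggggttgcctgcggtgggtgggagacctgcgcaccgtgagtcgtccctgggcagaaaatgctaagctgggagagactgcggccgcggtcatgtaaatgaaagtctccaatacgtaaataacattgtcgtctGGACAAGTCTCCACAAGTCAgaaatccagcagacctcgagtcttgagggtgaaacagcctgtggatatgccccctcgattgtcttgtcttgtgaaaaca

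The outermost windows of FAS, SESN1 and EDA2R are shown with every CG in capitals, because the first pair carried ZBTB24 peaks at the promoter, EDA2R rose with added FLAG-ZBTB24, and CG is the dinucleotide that DNA methyltransferases modify. The FAS window held 18 CG, the SESN1 window 28 and the EDA2R window 8, where the median of all windows was 14.
FAS outermost window (chr10:88990548-88990847, + strand): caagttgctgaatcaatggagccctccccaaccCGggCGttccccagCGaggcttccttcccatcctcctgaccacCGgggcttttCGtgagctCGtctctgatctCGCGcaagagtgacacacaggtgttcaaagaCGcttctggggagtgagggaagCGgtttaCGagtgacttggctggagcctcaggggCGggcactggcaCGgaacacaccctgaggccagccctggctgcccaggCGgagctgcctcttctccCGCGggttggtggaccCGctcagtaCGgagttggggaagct
SESN1 outermost window (chr6:109094797-109095096, - strand): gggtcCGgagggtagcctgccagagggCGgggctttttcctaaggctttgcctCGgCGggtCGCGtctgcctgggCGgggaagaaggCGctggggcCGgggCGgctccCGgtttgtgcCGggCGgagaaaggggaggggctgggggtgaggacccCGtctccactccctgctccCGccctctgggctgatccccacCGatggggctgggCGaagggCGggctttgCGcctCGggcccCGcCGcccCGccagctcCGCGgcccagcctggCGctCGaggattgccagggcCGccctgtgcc
EDA2R outermost window (chrX:66639220-66639519, - strand): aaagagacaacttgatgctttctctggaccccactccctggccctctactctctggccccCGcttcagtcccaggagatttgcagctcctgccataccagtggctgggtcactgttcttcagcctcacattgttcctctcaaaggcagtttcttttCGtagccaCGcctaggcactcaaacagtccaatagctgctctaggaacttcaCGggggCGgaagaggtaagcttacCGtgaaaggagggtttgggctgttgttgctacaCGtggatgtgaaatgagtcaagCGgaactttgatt

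The SESN1 window was thus denser in CG than 73.8% of windows and the EDA2R window denser than 39.3%. Among the other members, MDM2 reached 39 CG and CDKN1A 29, while BBC3 had 5. DNA methylation at these bases was not analysed here. The deposited peaks use build hg19 and the windows GRCh38.p14, and the starts of both annotations were not lined up. Exact overlap of the ZBTB24 peaks with the FAS and SESN1 letters was therefore not determined. The windows reach 250 bases before a RefSeq start. The SESN1 peak lay farther out, 598 to 985 bp upstream of its hg19 start, and the FAS peak 110 to 397 bp upstream. No ZBTB24 peak covers the EDA2R letters, as the list holds none on the X chromosome. The letters should not be read as peak sequence.

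The expression tables give 1 FPKM value per group, pooled by the authors over its libraries, with the authors' fold change, p and q. FPKM scales fragments by transcript length and library size, so levels can be set side by side between genes. No value per library was analysed here, so neither a spread between libraries nor a depth can be given, and a call below means a q under 0.05 in the authors' deposited table. The labels do not tie the hairpin libraries to separate cultures, and the p-values in the tables may therefore measure technical spread only. The tables list only loci beyond a fold change (at least 0.5 on the log2 scale in either direction for both ZBTB24 comparisons), and for an absent gene a small change, a filter and no test cannot be told apart. Of 5 epithelial markers, 4 were listed in at least 1 table (CDX1 was not), with wild-type levels of 179 FPKM for EPCAM, 839 for KRT8, 739 for KRT18 and 27.3 for CDH1. None of 5 markers of other cell types was listed in any table. ZBTB24 itself was not listed for the knockdown and DNMT3B not for the knockout, so neither loss could be checked here. The locus that holds ZBTB24 and MICAL1 rose to 155 FPKM in FLAG-ZBTB24 cells, against 17.8 FPKM in FLAG-only cells (log2 fold change 3.12, q = 0.0192) in the authors' deposited table.

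With ZBTB24 knocked down, p53 targets were listed in both directions. SESN1, a sestrin that restrains growth signalling under stress, rose 1.89-fold, and it was the only member called. FAS, the cell surface receptor for FAS ligand that triggers apoptosis, was listed 3.09-fold higher without a call. EDA2R, TNFRSF10B and GDF15 were listed lower, also without a call. The other members, BBC3, TP53I3, CDKN1A, MDM2 and FDXR, were not listed.

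The death receptors pointed in both directions. FAS stood at 7.69 FPKM in shZBTB24 cells and 2.49 FPKM in shNT cells in the authors' deposited table, with a log2 fold change of 1.63 (p = 0.0191, q = 0.192). This was the largest change among the listed members, and 7.68% of the loci listed higher had a larger one. TNFRSF10B, the receptor of the death ligand TRAIL that is also called DR5, had 56.2 FPKM in shZBTB24 cells and 92.7 FPKM in shNT cells in the authors' deposited table (log2 change −0.72, p = 0.0059, q = 0.114). EDA2R, a TNF receptor family member that binds ectodysplasin A2, had 4.28 FPKM in shZBTB24 cells and 7.68 FPKM in shNT cells in the authors' deposited table (log2 change −0.84, p = 0.0476, q = 0.346). Thus 1 of these 3 receptors was higher and 2 were lower, and none was called.

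BBC3, which encodes the BH3-only protein PUMA that sets off apoptosis at mitochondria, and TP53I3, a quinone oxidoreductase also known as PIG3, were not listed. CDKN1A, which encodes the cyclin-dependent kinase inhibitor p21, and MDM2 were not listed either. Without rows, nothing can be said of the size or direction of any change in these 4 genes.

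GDF15, a secreted stress cytokine of the TGF-beta family, had the highest level of the listed members. It stood at 188 FPKM in shZBTB24 cells and 318 FPKM in shNT cells in the authors' deposited table (log2 change −0.76, p = 0.0035, q = 0.0817). SESN1 stood at 9.04 FPKM in shZBTB24 cells and 4.79 FPKM in shNT cells in the authors' deposited table (log2 change 0.92, p = 0.00115, q = 0.0418). Among the loci listed higher, 35.0% had a larger change than SESN1. FDXR, a mitochondrial ferredoxin reductase, was not listed.

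In shZBTB24 cells the order of levels, from high to low, was GDF15, TNFRSF10B, SESN1, FAS and EDA2R. In shNT cells it was GDF15, TNFRSF10B, EDA2R, SESN1 and FAS. Which neighbours in these orders differ beyond their spread could not be tested on pooled values. In these bulk libraries, fewer cells with a transcript and less of it per cell cannot be told apart.

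In all, 5 of the 10 members were listed for the knockdown, against 8.04% of the gene names in the annotation. That share is not limited to expressed genes, so it is not the share to be awaited for expressed genes such as the listed members. Of these 5, 2 were higher and 3 lower, while 55.0% of the 1965 listed loci were higher and 45.0% lower. The single rise has to be read against a background in which 12.2% of the listed loci rose and 9.82% fell (22.0% called in either direction). The median log2 fold change of the listed members was −0.72, against 0.55 for all listed loci, and the median absolute value was 0.84, against 0.77. No listed value lies between −0.5 and 0.5, so the signs of these medians restate the counts of higher and lower loci. The table was itself cut on p, since 97.0% of its loci had an unadjusted p under 0.05, so a p below that level adds nothing to a member's being listed. Beside these genes the epithelial marker CDH1 fell to 23.2 FPKM in shZBTB24 cells, against 46.3 FPKM in shNT cells, in the authors' deposited table (log2 change −1.0, q = 0.00493). The part of that change in the members' values was not tested, and the other 4 epithelial markers were not listed for the knockdown.

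Some of these rows share ground with neighbours. The FAS locus of the table runs over ACTA2 on the opposite strand for 56317 bp, and FAS-AS1 overlaps 1552 bp of the FAS gene. The TNFRSF10B locus overlaps RHOBTB2 on the opposite strand for 32781 bp. The library kit keeps the strand, but the sources used here do not say whether the counting used it, so the part of these neighbours in the FAS and TNFRSF10B values was not tested. TNFRSF10B also lies in a cluster of related TRAIL receptor genes, and how reads shared between them were counted is not given. No other gene overlaps SESN1 or EDA2R in the annotation.

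**Figure D2:**
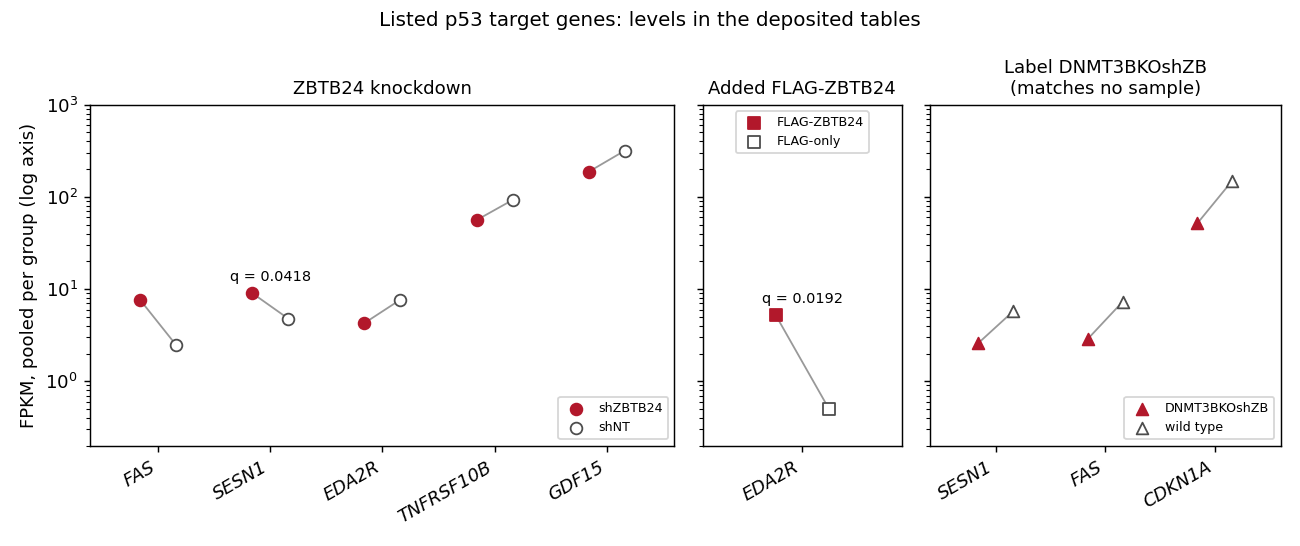
Pooled FPKM per group (y, log axis) of the p53 target genes that the deposited tables list (x), filled symbols for shZBTB24, FLAG-ZBTB24 or the label DNMT3BKOshZB and open symbols for the shNT, FLAG-only or wild-type cells they were set against. The 2 rows with a q under 0.05 carry that q: SESN1 with ZBTB24 knocked down and EDA2R with FLAG-ZBTB24 added.

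With FLAG-ZBTB24 added, EDA2R was the only member listed, and it rose 10.3-fold. It stood at 5.20 FPKM in FLAG-ZBTB24 cells and 0.506 FPKM in FLAG-only cells in the authors' deposited table (log2 change 3.36, p = 5e-05, q = 0.0192). The call belongs to a small set, as 4 loci, or 0.228% of the 1754 listed, rose and 0.342% fell (0.57% called in either direction). By the size of the log2 fold change EDA2R came 7th among the loci listed higher, of which 0.723% had a larger one. The p of 5e-05 is the lowest that the table gives. The other 9 members were not listed, and 7.21% of all gene names were.

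The listed EDA2R level was not alike in the control cells either. The authors' deposited tables put EDA2R at 5.20 FPKM in FLAG-ZBTB24 cells, 4.28 FPKM in shZBTB24 cells, 7.68 FPKM in shNT cells and 0.506 FPKM in FLAG-only cells. The value in FLAG-ZBTB24 cells lay between those of both hairpin groups, and the FLAG-only cells had the lowest value by far. FLAG-only and FLAG-ZBTB24 values each pool 2 clones, and which clone carries the difference was not analysed here. The sources used here do not say whether the tables were normalised together. The EDA2R locus ran over chrX:65814983-65859140 in the FLAG-ZBTB24 comparison and chrX:65814442-65859140 in the knockdown, so its gene model was not the same in both. These levels are therefore set side by side as a description only. The pseudocount on the log scale moved the EDA2R value, which was 2.04 with 1 FPKM added to both groups.

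No member was listed for the DNMT3B knockout, against 9.08% of all gene names. This comparison held 2243 loci, all of them higher than wild type and at least 1.0 on the log2 scale. Among them 0.312% had a q under 0.05 and 9.36% an unadjusted p under 0.05, and with 1 library per group this q sets 1 library against another, not one condition against another.

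The same table holds 1112 rows under the label DNMT3BKOshZB, which matches no sample analysed here, so they were kept apart from the comparisons. All of these rows were lower than the same wild-type library, and 3 members were among them, against 4.5% of all gene names. CDKN1A had 51.5 FPKM under this label and 150 FPKM in wild-type cells in the authors' deposited table (log2 change −1.54). FAS had 2.88 FPKM under this label and 7.32 FPKM in wild-type cells in the authors' deposited table (log2 change −1.35). SESN1 had 2.59 FPKM under this label and 5.76 FPKM in wild-type cells in the authors' deposited table (log2 change −1.15). None of the 3 had a q under 0.05, against 0.36% of the rows with this label, and the median over those rows was −1.48. The epithelial markers EPCAM, KRT8, KRT18 and CDH1 were lower there too, with log2 fold changes of −1.22, −1.5, −1.17 and −2.16 in the authors' deposited table, and their part in the members' values was not tested. ACTA2, which the FAS locus of these rows overlaps for 56317 bp, was lower as well. It had 1.94 FPKM under this label and 5.9 FPKM in wild-type cells in the authors' deposited table (log2 change −1.6). The part of ACTA2 in the FAS value was not tested. DNMT3B itself had 6.46 FPKM under this label and 21.1 FPKM in wild-type cells in the authors' deposited table (log2 change −1.71, q = 0.676).

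Across all tables, 6 of the 10 members were listed at least once, and BBC3, TP53I3, MDM2 and FDXR were listed nowhere. EDA2R was the only member listed for both ZBTB24 comparisons, lower with the hairpin and higher with the added protein, with a call in the second alone. Whether the change of EDA2R differs between these comparisons could not be tested on pooled values.

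The other genes of the pathway, 110 reported p53 targets and 15 regulators or family members of p53, were listed in both directions for the ZBTB24 comparisons. For the knockdown, 19 of the 110 targets were listed (17.3%), 12 higher and 7 lower. Of these, 1 rose and 1 fell, read against the 12.2% and 9.82% of all listed loci. Their median log2 fold change was 0.68, against 0.55 for all listed loci, and the median absolute value was 0.72, against 0.77. RPS27L, a ribosomal protein-like factor, rose to 71.3 FPKM in shZBTB24 cells, against 38.3 FPKM in shNT cells, in the authors' deposited table (log2 change 0.90, q = 0.00493). TNFSF9, a ligand of the TNF family, fell to 21.5 FPKM in shZBTB24 cells, against 38.4 FPKM in shNT cells, in the authors' deposited table (log2 change −0.84, q = 0.0327).

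Other targets were listed for the knockdown without a call. GRHL3, a transcription factor of epithelia, had 12.3 FPKM in shZBTB24 cells and 4.33 FPKM in shNT cells in the authors' deposited table (q = 0.199). PRDM1, a transcriptional repressor, had 1.77 FPKM in shZBTB24 cells and 0.895 FPKM in shNT cells in the authors' deposited table (q = 0.0631). HSPA4L, a heat shock protein, had 14.96 FPKM in shZBTB24 cells and 8.67 FPKM in shNT cells in the authors' deposited table (q = 0.0527). ACER2, an alkaline ceramidase, had 3.50 FPKM in shZBTB24 cells and 2.07 FPKM in shNT cells in the authors' deposited table (q = 0.203). CSF1, the macrophage colony-stimulating factor, had 1.32 FPKM in shZBTB24 cells and 0.781 FPKM in shNT cells in the authors' deposited table (q = 0.266). These 5 were higher with the hairpin. DDIT4, an inhibitor of mTOR signalling, was lower, at 79.3 FPKM in shZBTB24 cells and 136 FPKM in shNT cells in the authors' deposited table (q = 0.057). By role, the 4 other death receptor and TNF family genes gave 2 listed genes, both lower. These were the receptor TNFRSF10D and the ligand TNFSF9. The 19 stress metabolism genes gave 2 and the 16 apoptosis genes 2, all higher. Of the 12 arrest genes 4 were listed, 2 higher and 2 lower, as were 4 of the 16 secreted and surface factors, 2 higher and 2 lower. The 30 remaining targets gave 4 higher and 1 lower. None of the 8 other feedback genes, 5 repair genes or 15 regulators was listed.

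For FLAG-ZBTB24, 14 of the 110 targets were listed (12.7%), 9 higher and 5 lower, where 47.3% of all listed loci were higher, and none was called. Their median log2 fold change was 0.55, against −0.51 for all listed loci. As no listed value lies between −0.5 and 0.5, these opposite signs restate the counts of higher and lower loci. At an unadjusted p under 0.05 there were 2 of them, where 9.92% of the listed loci were below that p. TNFRSF10C, a decoy receptor of TRAIL listed together with LOC254896, had 2.90 FPKM in FLAG-ZBTB24 cells and 0.721 FPKM in FLAG-only cells in the authors' deposited table (log2 change 2.01, q = 0.429). DDIT4 had 72.5 FPKM in FLAG-ZBTB24 cells and 196 FPKM in FLAG-only cells in the authors' deposited table (log2 change −1.43, q = 0.25). RPS27L, the target that rose with the hairpin, had 59.6 FPKM in FLAG-ZBTB24 cells and 104 FPKM in FLAG-only cells in the authors' deposited table (log2 change −0.80, q = 0.668). Of the other targets listed for both ZBTB24 comparisons, RPS27L, GRHL3 and TLR3 were higher with the hairpin and lower with FLAG-ZBTB24. DDIT4 was lower in both, and ACER2 and TP53INP1 were higher in both. GRHL3 and TLR3 each had a q of 0.997 for FLAG-ZBTB24 in the authors' deposited table. TLR3 was low there, at 0.426 FPKM in FLAG-ZBTB24 cells and 0.610 FPKM in FLAG-only cells. How often all loci listed for both comparisons had opposite signs was not computed. Of the regulators, MDM4, a relative of MDM2 that also inhibits p53, was the 1 listed, at 14.2 FPKM in FLAG-ZBTB24 cells and 9.67 FPKM in FLAG-only cells in the authors' deposited table (q = 0.967).

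For the DNMT3B knockout, 15 of the 110 targets were listed (13.6%), all higher like every listed locus, and none had a q under 0.05. Their median log2 fold change was 1.94, against 2.12 for all listed loci. TRIM22, an antiviral ubiquitin ligase, had 3.77 FPKM in the knockout library and 0.293 FPKM in the wild-type library in the authors' deposited table (log2 change 3.68). CSF1 had 14.0 FPKM in the knockout library and 1.39 FPKM in the wild-type library in the authors' deposited table (log2 change 3.33). PLTP, a phospholipid transfer protein of plasma, had 22.3 FPKM in the knockout library and 3.63 FPKM in the wild-type library in the authors' deposited table (log2 change 2.62). LAPTM5, a lysosomal membrane protein, TLR3, a receptor for double-stranded RNA, and FAM198B had log2 fold changes of 3.42, 2.32 and 2.67 in the authors' deposited table. The median wild-type level of all loci listed for the knockout was 0.695 FPKM.

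ChIP-seq of the tagged proteins gave 1 merged peak list per factor, with 6173 ZBTB24 peaks of a median width of 191 bp and 15909 DNMT3B peaks of a median width of 2482 bp. Positions are in hg19. Peaks whose midpoint lay up to 1000 bp from an annotated start counted for that promoter, and those inside a gene but farther from its starts counted for the gene body. The lists hold no peaks per library, and the score of a peak is the authors' own.

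ZBTB24 peaks lay at the promoters of 2 of the 10 members, FAS and SESN1, against 4.09% of all gene names and 4.64% of those within the members' range of lengths. The FAS peak, at chr10:90749891-90750178, was 288 bp wide and lay 110 to 397 bp upstream of the outermost FAS start. Its score of 7.09 ranked 4254th among the ZBTB24 peaks. The nearest start of another gene was that of ACTA2, 1113 bp from the midpoint of the peak. The SESN1 peak, at chr6:109416306-109416693, was 388 bp wide and lay 598 to 985 bp upstream of the SESN1 start. Its score of 18.8 ranked 288th, higher than 95.3% of the list. It also lay closer to another gene, since its midpoint was 143 bp from the start of CEP57L1 on the opposite strand and 791 bp from that of SESN1. CEP57L1 was listed in no table.

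These were the members listed higher with ZBTB24 knocked down, with log2 fold changes of 1.63 for FAS and 0.92 for SESN1 in the authors' deposited table. Over the whole pathway, 12 genes had a ZBTB24 promoter peak. These were FAS and SESN1, 9 of the 110 other targets (8.18%) and 1 of the 15 regulators (6.67%), against 4.09% of all gene names. Of the 12, 4 were listed for the knockdown (FAS, SESN1, ASCC3 and PRDM1), all 4 higher and 1 with a call. FAS and SESN1, already given above, are thus part of this count. ASCC3, a DNA helicase subunit, had a log2 fold change of 0.68 and PRDM1 of 0.99 in the authors' deposited table. Among all listed loci with a ZBTB24 promoter peak, 76 of 124 (61.3%) were higher, against 55.0% of all listed loci, and 12.1% rose, against 12.2%.

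No ZBTB24 peak lay in the body of any member, where 5.33% of all gene names had one. EDA2R, the member that rose with FLAG-ZBTB24, lies at chrX:65815482-65859140, and the ZBTB24 list holds no peak anywhere on the X chromosome. The sources used here do not say whether peaks there were removed. A peak at chr2:24298547-24299331 lay 972 bp past the 3′ end of TP53I3, where its midpoint was 375 bp from the start of SF3B6. BBC3 had its nearest ZBTB24 peak 14895 bp away. For TNFRSF10B, MDM2, CDKN1A, FDXR and GDF15 the nearest was farther, at 172773, 207609, 233564, 295760 and 400327 bp from the gene.

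DNMT3B peaks showed another pattern, with 5 of the 10 members holding one in the gene body and none at a promoter. In gene bodies this compares with 23.1% of all gene names and 28.3% of those in the members' range of lengths, and at promoters with 2.59%. Neither set of names was matched to the members on expression, so these shares do not tell p53 targets from expressed genes in general. Among the other targets 45 of 110 (40.9%) had a DNMT3B peak in the body, and 2 at the promoter.

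MDM2 was the most covered member. Its 3 peaks, at chr12:69204722-69221520, chr12:69228420-69233415 and chr12:69235061-69236088, lay over 61.1% of the gene. Of the 6125 gene spans with any DNMT3B peak, 90.2% had a smaller share covered, and their median was 17.9%. The first MDM2 peak began 2770 bp from the outermost start and ran over a start annotated inside the gene, 2532 bp from the midpoint of the peak.

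CDKN1A had 1 DNMT3B peak, at chr6:36651456-36653735, over 21.0% of the gene. SESN1 had 2, centred at 89.5% and 95.9% of its length, which covered 8.27%. TNFRSF10B had 1, centred at 89.4% of its length, which covered 6.06%. FDXR had 1 of 957 bp, which covered 9.08%, and its midpoint was 1059 bp from the nearest start, just beyond the limit for a promoter. By the centres of the peaks, the CDKN1A peak lay at 76.8% of the gene's length, the FDXR peak at 30.6% and the 3 MDM2 peaks at 29.9%, 77.5% and 90.0%. By score among the 15909 DNMT3B peaks, those of SESN1 ranked 15618th and 4727th, TNFRSF10B 14555th, FDXR 13417th and CDKN1A 9936th. The MDM2 peaks ranked 7227th, 4199th and 7396th. SESN1 was the only member with peaks of both factors, ZBTB24 upstream of its start and DNMT3B near its other end.

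No DNMT3B peak lay in EDA2R, FAS, BBC3, TP53I3 or GDF15. The nearest was 11107 bp from BBC3, 37656 bp from TP53I3, 71697 bp from GDF15, 215064 bp from FAS and 3510518 bp from EDA2R. Of all 15909 DNMT3B peaks, 17 lay on the X chromosome, which carries EDA2R. No member, with or without a DNMT3B peak in the body, had a row in the DNMT3B knockout comparison. That comparison lists only loci higher than wild type, so it could not show a fall. Under the label DNMT3BKOshZB, CDKN1A and SESN1, with such a peak, and FAS, without one, were listed lower.

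**Figure D3:**
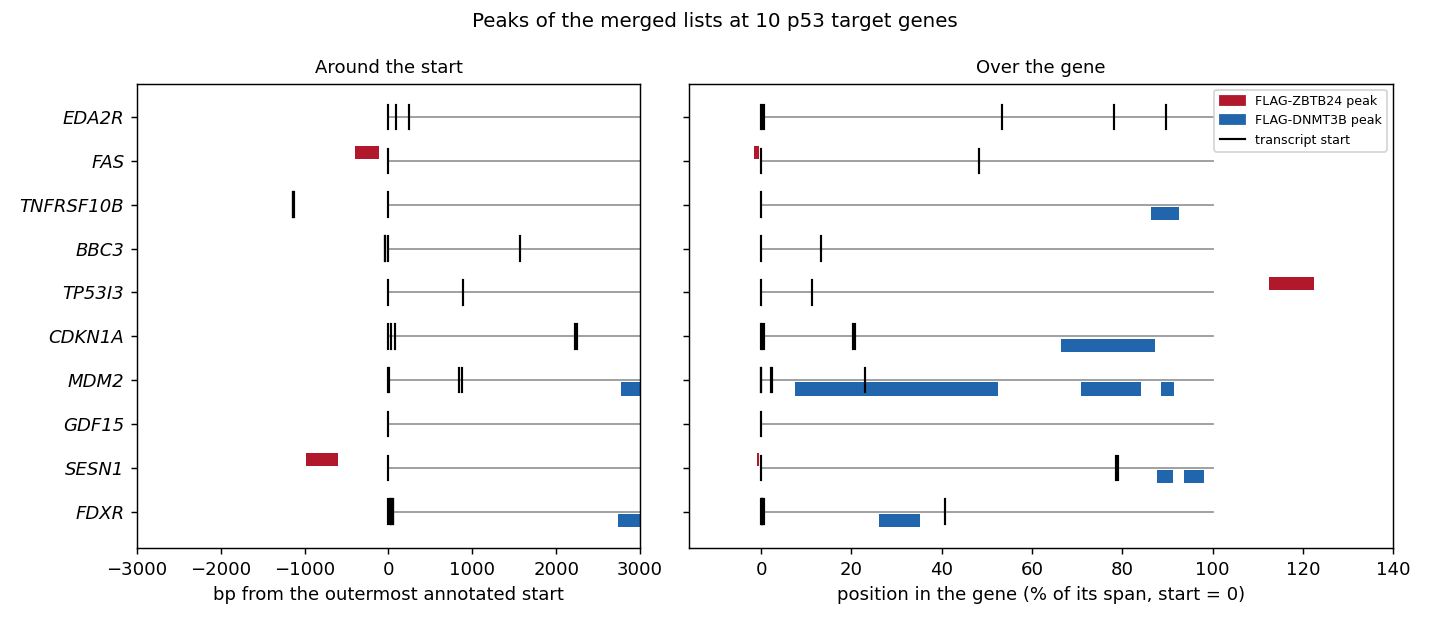
Merged ZBTB24 peaks (red) and DNMT3B peaks (blue) at the 10 p53 target genes, by distance from the outermost annotated start in bp (left) and by position along the gene in % of its span (right), with transcript starts as black ticks. ZBTB24 peaks stand upstream of FAS and SESN1, and DNMT3B peaks lie inside MDM2, CDKN1A, SESN1, TNFRSF10B and FDXR.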

How the data were processed

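RNA-seq and FLAG ChIP-seq of HCT116 cells were grouped by the sample titles and the labelled characteristics. HISAT2, StringTie, Cufflinks, MACS2 and build hg19 are named in the submitters' processing notes, without versions in the sources used here. The authors deposited 1 FPKM value per locus and group, pooled over libraries. The deposited tables also give the authors' log2 fold change, here always the knockdown, FLAG-ZBTB24 or knockout group over its control. The authors also deposited a p-value and a q-value for every listed locus. The test statistic of the tables and the score of each peak are scores that the authors deposited, and the kind of peak score is not stated.

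Genes were looked up by symbol, splitting loci that hold several. A call was a q under 0.05. No test of differences was run, because only pooled values were at hand, so depth and counting precision are unknown. Tables may have been normalised separately. Peaks were assigned to promoters within 1000 bp of a start of the assembled annotation. Promoter windows came from RefSeq (GRCh38.p14). The named genes were the 10 members, other pathway genes with a q under 0.05, up to 6 more per table with the largest changes among those with an unadjusted p under 0.05 and at least 1 FPKM in a group (in the knockout table, the 6 largest with at least 1 FPKM), and listed regulators. RPS27L under FLAG-ZBTB24, and the other targets named as listed for both ZBTB24 comparisons, were added after their values were seen. The members and lists were chosen with earlier results of these data known. Alternatives were other thresholds, a minimum of 1 FPKM, single-gene loci, pseudocounts, other promoter windows and stronger peaks. Peak placement and the motif search were tested on simulated data. Python 3.11.15 with pandas 2.3.3, numpy 2.4.6 and matplotlib 3.10.9 was used.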

Additional observations from a re-analysis of the deposited data

How the results depend on the processing

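The counts of called genes depended on the threshold. For the knockdown, 1 member passed a q under 0.05, 2 passed a q under 0.10 (SESN1 and GDF15), and 5 had an unadjusted p under 0.05, which is every listed member. Of all loci listed for the knockdown, 22.0% had a q under 0.05, 35.5% a q under 0.10 and 97.0% an unadjusted p under 0.05. Of the other pathway genes, 2 passed for the knockdown, 8 at a q under 0.10 and 19, the number listed, at an unadjusted p under 0.05. At an unadjusted p under 0.05, 2 other pathway genes (TNFRSF10C and DDIT4) were counted for FLAG-ZBTB24 and 1 (CSF1) for the DNMT3B knockout, each against 0 at a q under 0.05, where 9.92% and 9.36% of the listed loci had such a p. The count of members with a ZBTB24 promoter peak was 2, and 1 with a window of 500 bp (FAS) or with peaks above the median score (SESN1). The count with a DNMT3B peak in the body was 5, and 2 with peaks above the median score (MDM2 and SESN1). No member had a DNMT3B promoter peak, but 1 did with a window of 2500 bp (FDXR) and 2 where any overlap of 1 base counted (FDXR and MDM2). The other 35 alternatives for these counts stayed within 1.5 times the count as reported. With 1 FPKM added to both groups, which cannot turn the sign, the log2 fold change of EDA2R under FLAG-ZBTB24 was 2.04 and FAS under the knockdown 1.32.

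No paired analysis was possible because the tables hold pooled values and none per library, and leaving out single replicates was not run for the same reason. The cause of these shifts was not tested. Depth is unknown, so how far low levels such as 0.506 FPKM can be trusted could not be judged.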

Other observations

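The rows under the label DNMT3BKOshZB, which matches no sample analysed here, also held other genes of the p53 pathway. Of the 110 other targets 13 were listed there, all lower than the wild-type library, with a median log2 fold change of −1.42, against −1.48 for all rows of this label. KITLG, the ligand of the receptor KIT, stood out at 1.43 FPKM under this label and 143 FPKM in wild-type cells in the authors' deposited table (log2 change −6.64, q = 0.208). CMBL, a hydrolase, had a log2 fold change of −2.20 and TGFA, a ligand of the EGF receptor, one of −1.86 in the authors' deposited table. CCNG1, a cyclin, had 20.2 FPKM under this label and 61.6 FPKM in wild-type cells in the authors' deposited table (log2 change −1.61). SFN, which encodes the 14-3-3 sigma protein of G2 arrest, had 36.5 FPKM under this label and 110 FPKM in wild-type cells in the authors' deposited table (log2 change −1.59). TNFRSF10D, a decoy receptor of TRAIL, had 5.67 FPKM under this label and 17.1 FPKM in wild-type cells in the authors' deposited table (log2 change −1.59). Of the regulators, the kinase gene HIPK2 had a log2 fold change of −1.09 and the p53 relative TP73 one of −1.16 in the authors' deposited table. None of these rows had a q under 0.05.

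DNMT3B peaks lay in the bodies of 10 of the 15 regulators and family members of p53 (66.7%), against 23.1% of all gene names. These genes were not matched on length or expression. ATM, the kinase that signals DNA breaks to p53, held 12 peaks, TP53BP1, a repair factor that binds at breaks, also 12, PRKDC, the catalytic subunit of DNA-dependent protein kinase, 11, and ATR, the kinase of replication stress, 8. ATR also held the only DNMT3B promoter peak of the regulators (6.67%), against 2.59% of all gene names. ZBTB24 peaks lay in the bodies of HIPK2 and TP63 (13.3%), against 5.33% of all gene names, and at the promoter of PRKDC (6.67%), against 4.09%. Counts this small do not set the regulators apart from other genes.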
